A study of Homo sapiens with 4 samples.

Results

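ONECUT2 occupancy was examined at 4 genes whose products bind RNA or act in translation: IGF2BP3, RBM39, DENR and RPS19. The genes were chosen by the signal value of the peaks at their starts, which stood among the highest of these same lists, so the height of those peaks is given as a description, with no test. Members are the peaks that overlap a gene's hg19 interval extended by 50 kb on each side. There were 18 such peaks of 14431 in replicate 1, 19 of 11990 in replicate 2 and 8 regions of 4297 in the third list, which its header calls the optimal set from an irreproducible discovery rate (IDR) analysis. The intervals were chromosome 7 from 23349828 to 23509995 for IGF2BP3, chromosome 20 from 34291531 to 34330234 for RBM39, chromosome 12 from 123237321 to 123255622 for DENR and chromosome 19 from 42363988 to 42375484 for RPS19. IGF2BP3 and RBM39 lie on the minus strand and therefore start at the higher coordinate.

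The study used 22Rv1, an established line of human castration-resistant prostate carcinoma, with no treatment or genetic change named in the labels. Chromatin immunoprecipitation with sequencing (ChIP-seq) was done with a rabbit antibody against ONECUT2 in 2 libraries, and 2 further libraries held input DNA, that is, chromatin taken without antibody. Cells had been cross-linked in 1% formaldehyde for 10 min and sonicated to between 100 and 500 bp. Nothing in the labels ties the ChIP libraries to separate cultures, and the spread between them may therefore be technical. No library made with a non-immune antibody or from cells lacking ONECUT2 was analysed here.

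As background, ONECUT2 is a transcription factor with a CUT domain and a homeodomain, known as a driver in castration-resistant prostate cancer. IGF2BP3 is an oncofetal RNA-binding protein that binds messenger RNAs and affects their stability and translation. RBM39 is a splicing factor and transcriptional coactivator, known as the protein that aryl sulfonamide drugs such as indisulam send for degradation. DENR forms a complex with MCTS1 that acts in reinitiation of translation and in recycling of ribosomal subunits. RPS19 is a protein of the small ribosomal subunit, and mutations in its gene cause Diamond-Blackfan anaemia.

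Promoter sequences are shown first because the highest peak of every window lay at the gene start. The RefSeq promoter table of build GRCh38.p14 had entries for IGF2BP3, DENR and RPS19, 3 of the 4 genes, and had 2 entries for RPS19, of which the first is printed. Each line gives the 250 bases before the annotated start, 5′ to 3′ on the strand of the gene. Capitals mark TCTCGCGA or its reverse complement TCGCGAGA, and CACGTG, an E-box. Both motifs were picked after these sequences had been seen. The entries lie in GRCh38.p14 at chr7:23470492-23470741 on the minus strand, chr12:122752574-122752823 on the plus strand and chr19:41860005-41860254 on the plus strand. Peaks are in hg19, so letters and summits were not aligned, and the annotated start of the table may differ from that of the hg19 interval.
IGF2BP3: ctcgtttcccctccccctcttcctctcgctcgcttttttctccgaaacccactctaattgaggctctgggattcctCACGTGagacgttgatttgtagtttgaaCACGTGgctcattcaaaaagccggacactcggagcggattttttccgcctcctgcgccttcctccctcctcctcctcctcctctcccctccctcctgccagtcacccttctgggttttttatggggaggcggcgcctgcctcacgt
DENR: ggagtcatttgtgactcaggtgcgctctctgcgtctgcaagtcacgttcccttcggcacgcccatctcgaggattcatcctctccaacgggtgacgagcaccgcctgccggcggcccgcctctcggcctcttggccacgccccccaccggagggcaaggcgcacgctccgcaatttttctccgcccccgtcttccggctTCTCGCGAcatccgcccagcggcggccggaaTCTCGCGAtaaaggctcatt
RPS19: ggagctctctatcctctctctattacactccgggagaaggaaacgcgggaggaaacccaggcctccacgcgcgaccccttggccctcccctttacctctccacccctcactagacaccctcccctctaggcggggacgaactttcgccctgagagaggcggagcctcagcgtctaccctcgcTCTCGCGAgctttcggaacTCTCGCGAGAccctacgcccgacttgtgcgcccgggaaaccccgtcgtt

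Motifs were searched on both strands over 300 bases, from 250 before to 50 after the start. If the starts of both builds agreed, the summits at IGF2BP3 (495 and 484 bp upstream) would lie outside this span. The RPS19 entries start at different bases, so at most 1 of them can share the start of the hg19 interval. Whether the RPS19 summits (286 and 292 bp inside the hg19 interval) lie within a searched span was not determined. Start peaks of the 3 genes were 1948 to 2718 bp wide, so most of each was not searched. An absent motif is therefore not a statement about the whole peak. The core of the ONECUT recognition sequence, ATTGAT (reverse complement ATCAAT), was in none of the entries of the 3 genes, while 6.26% of all 35116 entries of the table held it. The variant ATCGAT was also in none of them, and 0.763% of all entries had it. DENR had 1 match to the ETS motif CCGGAAG (10.3% of all entries have at least 1) and 3 matches to the SP/KLF motif GGGCGG (45%), of which 1 lay after the start. The second RPS19 entry had 1 match to GGGCGG. No entry of the 3 genes held CCAAT (34.6% of all entries), the NRF1 palindrome (1.24%), the YY1 motif AAGATGGC (2.89%) or the TATA motif TATAAA (11.5%).

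TCTCGCGA or its reverse complement was found at 51 and 20 bases before the start of DENR. In the first RPS19 entry it was found at 68, 49 and 47 bases before the start, and the last 2 matches overlap as 1 palindrome. The same 3 matches lay 217, 198 and 196 bases before the start of the second RPS19 entry. Such a match was in 1.15% of all entries. IGF2BP3 had none and instead had CACGTG at 174 and 146 bases before its start, a motif in 7.26% of all entries. The second RPS19 entry also had 1 CACGTG, after its start. These matches describe letters in a window, not bound sites. G and C made up 56.3% of the 300 bases of IGF2BP3, 68.7% of DENR and 65.7% of the first RPS19 entry, against a median of 58.7% over the table. CG pairs numbered 17, 38 and 28 in the same order, and the median was 14. By these measures DENR and RPS19 lay above the middle of the table, and IGF2BP3 lay on both sides of it.

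A peak covered the start of each of the 4 genes in all 3 lists. Fold enrichment is the authors' ratio of ChIP fragments at a summit over the local input background, and the fragments and background behind it were recovered from the deposited fold and p-values. All 4 start peaks had a fold enrichment of 6 or more in both replicates, a level reached by 7.46% of replicate 1 peaks and 7.08% of replicate 2 peaks. Since the genes were chosen for high signal, nothing is read from that count.

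**Figure D1:**
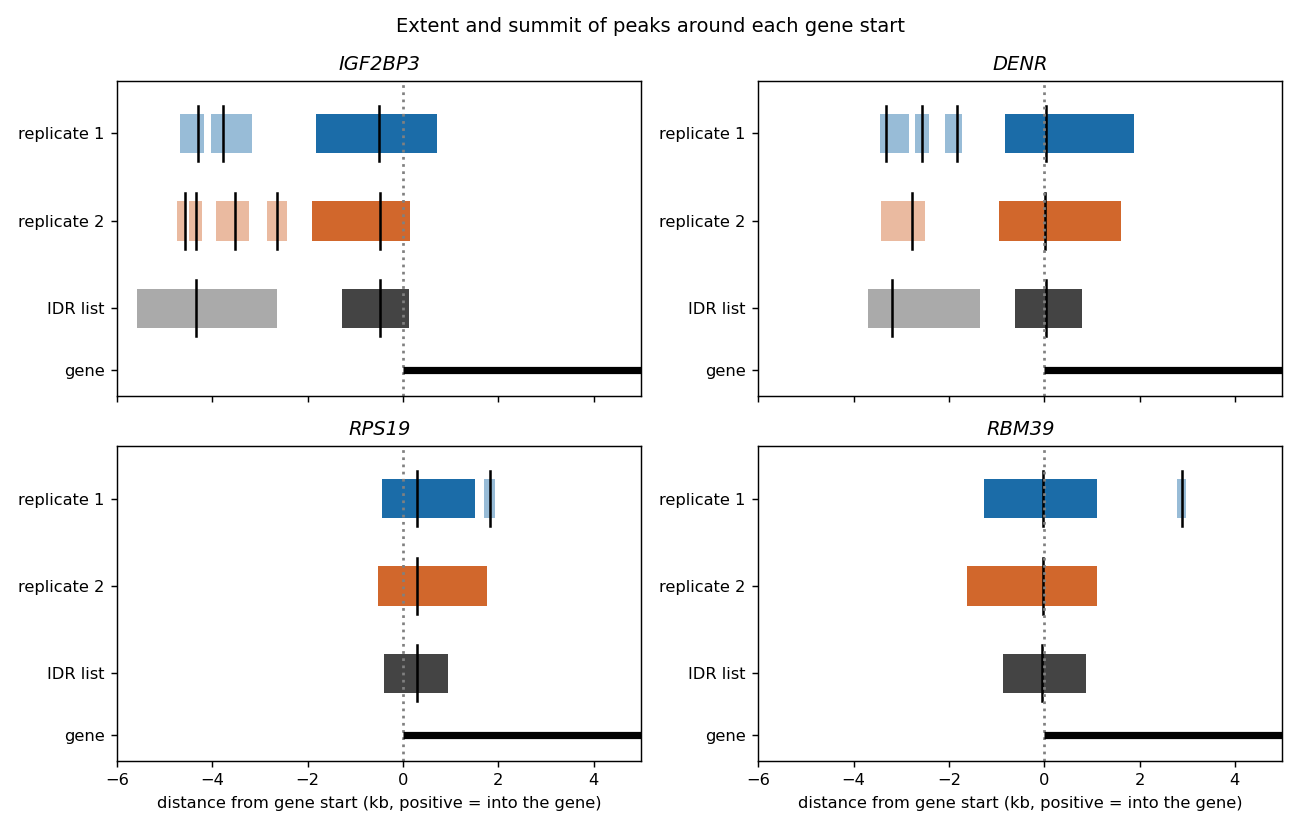
Peaks around each gene start, as bars from peak start to peak end, with a black tick at the summit; the x axis is the distance from the gene start in kb, positive into the gene, and rows are replicate 1, replicate 2 and the IDR list. Solid bars cover the start and pale bars are other peaks. The summit at IGF2BP3 lies upstream of the hg19 start, while that at RPS19 lies inside the hg19 interval.

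At the RNA-binding gene IGF2BP3 the start peak ran from 23509274 to 23511821 in replicate 1 and from 23509853 to 23511912 in replicate 2. It had 277 ChIP fragments at the summit in replicate 1 (95% Poisson interval 245 to 312) and 278 in replicate 2 (246 to 313). Over backgrounds of 21.0 and 22.7 fragments, this gave folds of 12.6 and 11.8, a mean of 12.2 ± 0.597 (SD, n = 2). Fragment numbers of the replicates were thus nearly equal, and the intervals overlapped almost fully. The summit lay 495 bp upstream of the hg19 gene start in replicate 1 and 484 bp upstream in replicate 2. The peak reached 1826 and 1917 bp upstream but only 721 and 142 bp into the gene, so most of it lay before the start.

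RBM39, the splicing factor gene, had its start peak from 34329118 to 34331500 in replicate 1 and from 34329122 to 34331856 in replicate 2. Fragments numbered 322 (interval 288 to 359) and 301 (268 to 337) over backgrounds of 20.4 and 22.7. The folds of 15.1 and 12.7 had a mean of 13.9 ± 1.67 (SD, n = 2), the highest mean of the 4 genes. Its summits were 28 and 27 bp upstream of the start and 1 bp apart, the closest agreement of the 4. The peak extended about as far upstream, 1266 and 1622 bp, as into the gene, 1116 and 1112 bp.

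DENR, the translation reinitiation and recycling factor, had a start peak from 123236490 to 123239207 in replicate 1 and from 123236381 to 123238941 in replicate 2. It carried the most fragments of the 4 genes in both libraries, 341 (interval 306 to 379) and 332 (297 to 370). Its background was also the highest, at 34.8 and 38.1 fragments. The folds were therefore the lowest, 9.55 and 8.52, with a mean of 9.04 ± 0.722 (SD, n = 2). Summits stood 30 and 25 bp inside the gene, and the peak covered 1886 and 1620 bp of the gene against 831 and 940 bp upstream.

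At RPS19, the ribosomal protein gene, the start peak ran from 42363546 to 42365493 in replicate 1 and from 42363453 to 42365751 in replicate 2. It had 281 fragments (interval 249 to 316) and 254 (224 to 287) over backgrounds of 18.4 and 22.0. The folds were 14.5 and 11.1, a mean of 12.8 ± 2.43 (SD, n = 2) and the widest spread between replicates among the 4. Both summits lay inside the hg19 gene interval, 286 and 292 bp from its start. The peak reached 1505 and 1763 bp into the gene and 442 and 535 bp upstream, the reverse of the pattern at IGF2BP3.

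**Figure D2:**
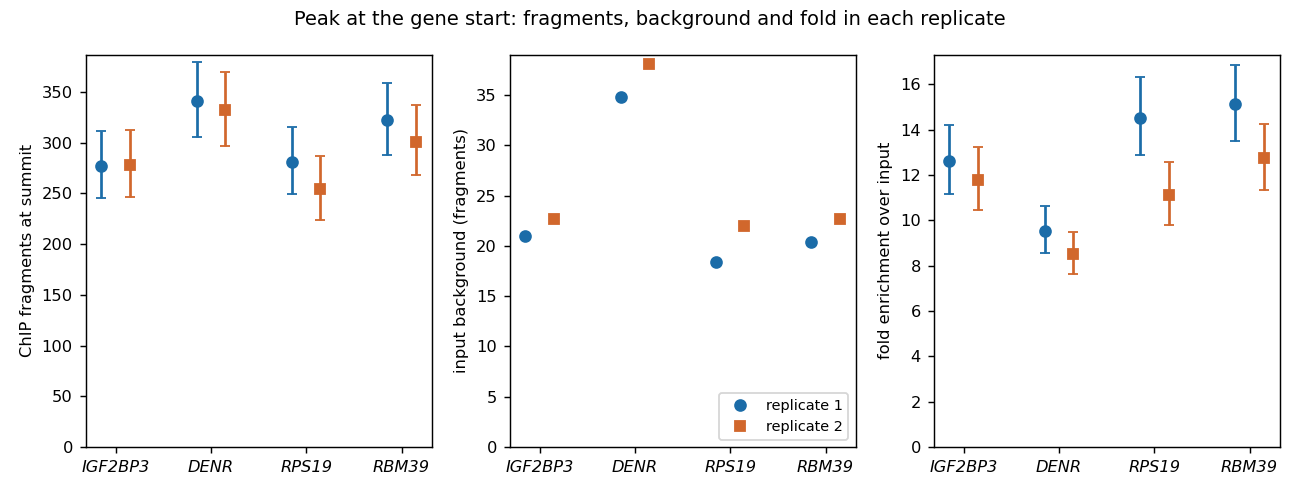
ChIP fragments at the summit, input background and fold enrichment of the start peak of each gene, with circles for replicate 1 and squares for replicate 2; bars are 95% Poisson intervals of the fragments, carried over to fold with the background held fixed. DENR has the most fragments (341 and 332), the highest background (34.8 and 38.1) and the lowest fold (9.55 and 8.52).

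The order of the 4 genes depended on the measure. By mean fold it was RBM39, RPS19, IGF2BP3 and DENR. Within each replicate the counting intervals of the first 3 overlapped, and RPS19 and IGF2BP3 changed places between replicates. The lower fold of RBM39, 12.75, was just above the higher fold of IGF2BP3, 12.62. DENR was lowest in both replicates: its higher fold, 9.55, was below the lowest fold of the other 3, 11.1. Within each replicate its counting interval did not overlap theirs. These intervals hold the background fixed, and the low fold of DENR comes from its high background. They therefore leave out the error that bears most on this difference. In fragments the order was turned, with DENR first in both replicates and RBM39 second, although their counting intervals overlapped. With the smallest background of each list (4.37 and 4.87 fragments) as denominator for every peak, the mean fold was 60.2 at DENR, 55.8 at RBM39, 49.6 at IGF2BP3 and 47.9 at RPS19.

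Background at DENR was 7.96 and 7.81 times the smallest value of its list, and only 0.388% and 0.242% of all peaks had one as high. At the other 3 starts it was 4.21 to 4.81 times the smallest value, with between 3.57% and 9.94% of all peaks as high. The high background at DENR was local, since the other peaks of its window had backgrounds of 9.86 to 13.8 fragments. The peak lists name only input, without a library, so the backgrounds of both lists may rest on the same input reads. They are therefore not taken as independent replicates, and the SD of a fold may not cover error in its background. Whether the input signal at these starts has a part in the peak heights was not tested, and the number of DNA copies at the 4 loci was not analysed here.

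Fold was higher in replicate 1 at all 4 starts, by 1.07 times at IGF2BP3, 1.12 at DENR, 1.19 at RBM39 and 1.31 at RPS19. Fragments differed less. The ratio of replicate 2 to replicate 1 fragments was 1.00 at IGF2BP3 (exact 95% interval 0.847 to 1.19), 0.974 at DENR (0.835 to 1.14), 0.935 at RBM39 (0.796 to 1.10) and 0.904 at RPS19 (0.760 to 1.07). All 4 intervals include 1 and also 0.933, the median ratio over the 651 peak pairs with a fold of 6 or more in both replicates and summits within 100 bp. Backgrounds stood in a ratio of 1.08 to 1.19, around the 1.11 between the smallest backgrounds of the 2 lists. That 1.11 lies above the fragment-ratio intervals of RBM39 and RPS19 and within those of IGF2BP3 and DENR. Fragments were not adjusted for library depth, which is not known here, so a fragment ratio of 1 does not mean equal enrichment.

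Summits of the replicates lay 1 to 11 bp apart at the 4 starts. Over the whole of replicate 1, 58.1% of the 7370 peaks that overlap a replicate 2 peak had summits within 100 bp, and the median distance was 79 bp. Among the 726 pairs with a fold of 6 or more in both lists, the median was 25 bp, so close summits were common at strong peaks. The start peaks were also wide, from 1948 to 2735 bp, where the median peak had 317 bp in replicate 1 and 294 bp in replicate 2. Between 0.459% and 1.57% of peaks were as wide. In the IDR list the same regions were 1340 to 1745 bp wide, below its median of 1768 bp.

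Rank by fold enrichment among all peaks was 87 and 105 for RBM39 in the 2 replicates, 104 and 169 for RPS19, 175 and 136 for IGF2BP3 and 404 and 362 for DENR. In fragments, DENR ranked 2 and 6, RBM39 6 and 11, RPS19 41 and 48 and IGF2BP3 45 and 24. By −log10 p, which rises with both, RBM39 was 6 and 9, RPS19 25 and 53, DENR 43 and 35 and IGF2BP3 55 and 26. RBM39 was thus the only one of the 4 within the first 12 of both replicates by more than 1 measure. In the IDR list the signal value, whose scale the header does not name, was 1455 for IGF2BP3 (rank 2), 1391 for DENR (rank 3), 1251.2 for RPS19 (rank 7) and 1250.8 for RBM39 (rank 8). The gene with the lowest fold, DENR, thus ranked above those with the highest in that list.

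**Figure D3:**
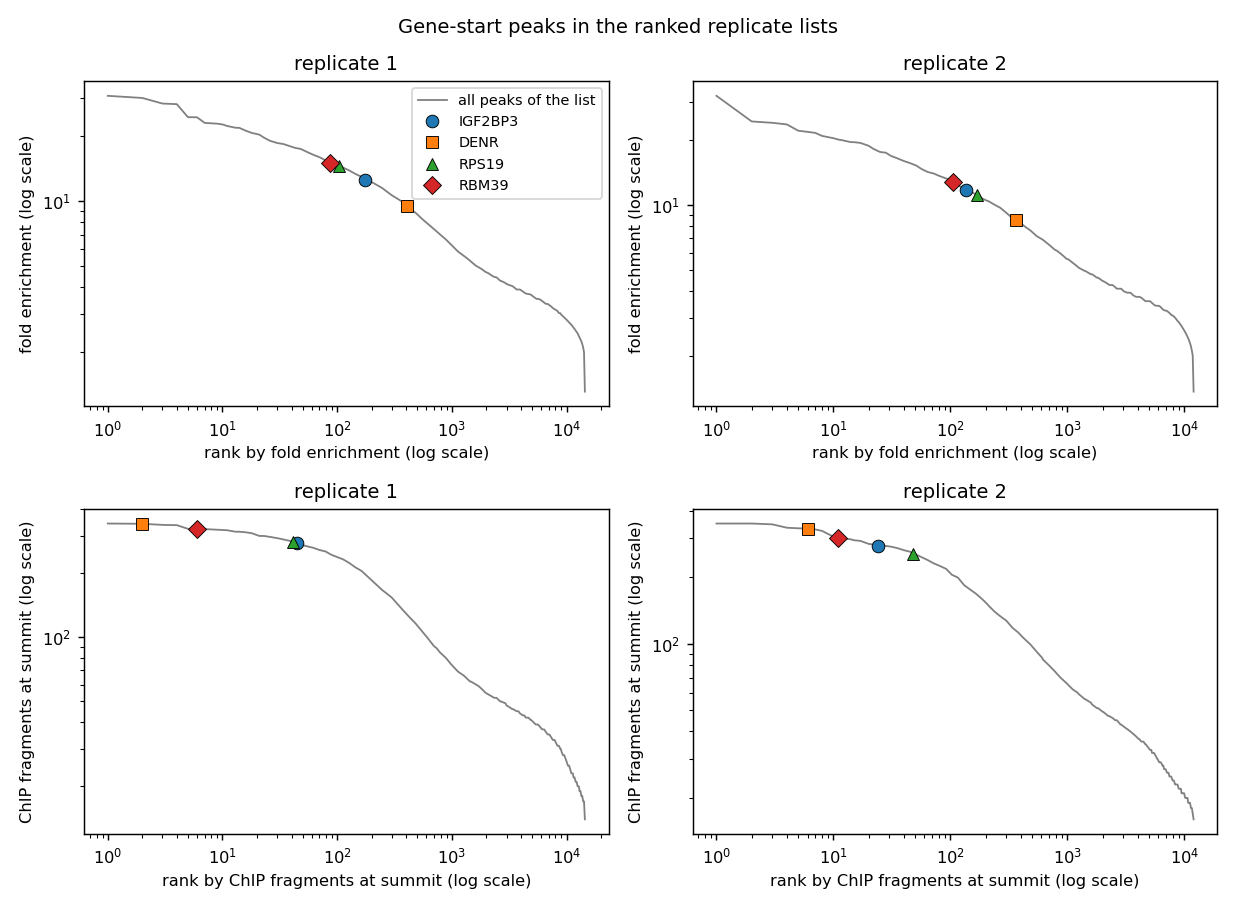
Height of every peak against its rank, for fold enrichment (top) and ChIP fragments (bottom) in replicate 1 (left) and replicate 2 (right), all axes logarithmic, with the start peaks of the 4 genes marked on the grey line of all peaks. By fold the 4 sit between rank 87 and 404, and by fragments between rank 2 and 48.

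The other peaks of the windows were far lower. The 14 other peaks of replicate 1 had folds of 1.98 to 4.25 with 18 to 62 fragments, and the 15 of replicate 2 had folds of 2.52 to 5.02 with 20 to 54 fragments. None reached a fold of 6. The start peak exceeded the strongest other peak of its window by 2.97 and 2.34 times in fold at IGF2BP3, 2.88 and 2.35 times at DENR, 4.99 and 3.62 times at RPS19 and 3.87 and 4.22 times at RBM39. In fragments the start peak exceeded the other peak with the most fragments by 4.47 to 8.32 times. This contrast follows in part from choosing genes with a high start peak.

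**Figure D4:**
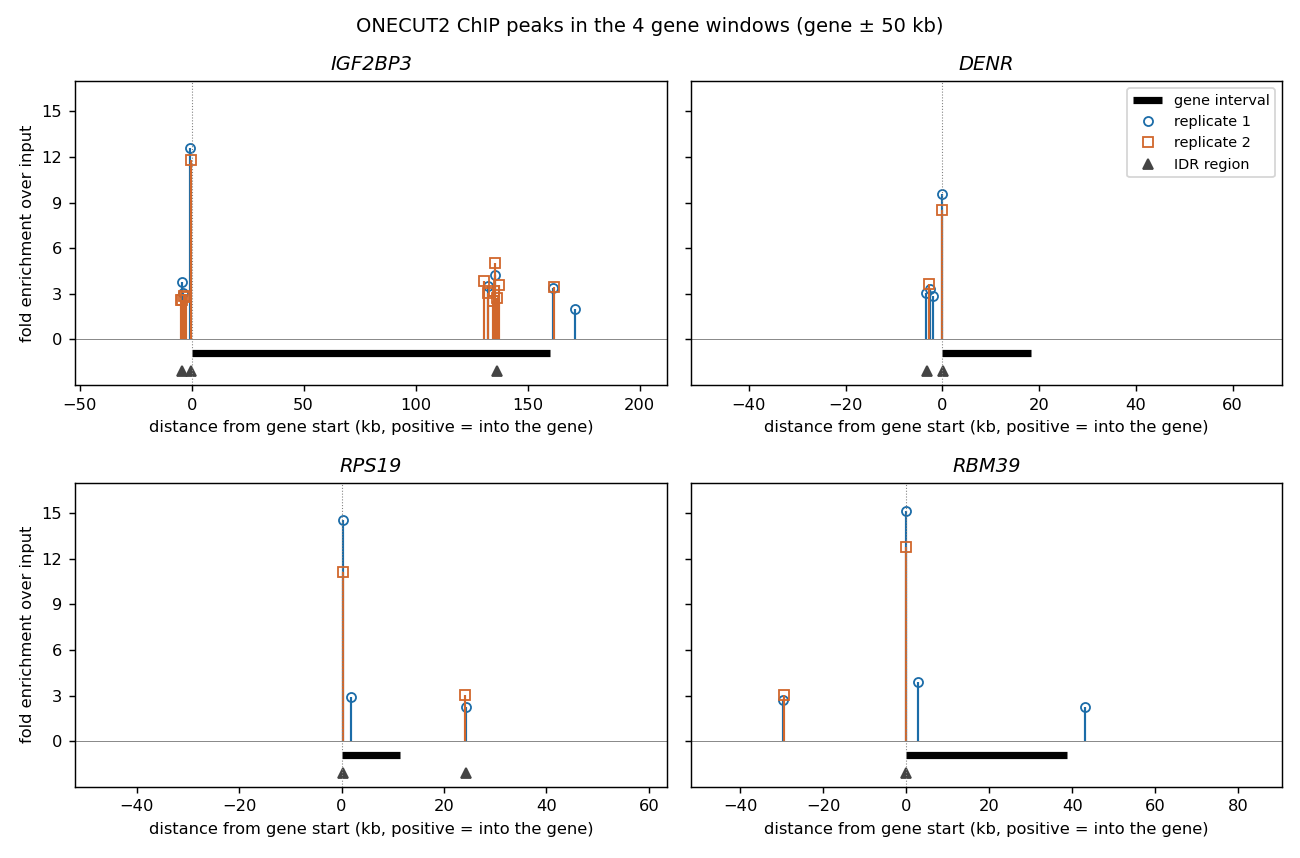
Fold enrichment of every peak in the 4 windows against the distance of its summit from the gene start in kb, with circles for replicate 1, squares for replicate 2, triangles for IDR regions and a black bar for the gene interval. In each window the tallest peak is at the start, and IGF2BP3 has a second group of lower peaks, with folds up to 5.02, more than 130 kb into the gene.

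IGF2BP3 had the most other peaks, 6 in replicate 1 and 12 in replicate 2. Of these, 2 and 4 lay upstream within 5 kb of the start, at folds of 2.58 to 3.76, and all of them overlapped 1 IDR region, from 23512643 to 23515586 (signal 216, rank 1532). Inside the gene, 2 and 7 peaks were grouped between 131 and 137 kb from the start. The strongest of them was the peak from 23374213 to 23374598 in replicate 1, with a fold of 4.25 and 29 fragments. In replicate 2 it ran from 23374097 to 23374569, with a fold of 5.02 and 38 fragments. An IDR region from 23371708 to 23375319 (signal 260, rank 924) covered it. Between the start peak and this group, no peak was called over 132 kb in replicate 1 and 130.3 kb in replicate 2. Beyond the 3′ end, both replicates had a peak 161.4 and 161.6 kb from the start, with folds of 3.39 and 3.43, and replicate 1 had 1 more, with a fold of 1.98. In RefSeq the gene next to that end is MALSU1, and a pseudogene, LOC389473, is next upstream.

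In the DENR window all other peaks lay upstream and close to the start. Replicate 1 had 3 of them, with folds of 3.04, 3.32 and 2.84 and summits 3.32, 2.57 and 1.83 kb from the start. Replicate 2 had 1, with a fold of 3.62 and a summit 2.77 kb away, which overlapped 2 of those 3. An IDR region from 123233612 to 123235981 (signal 188, rank 2283) covered the group. No peak was called within the rest of the gene or downstream: the next one lay 226 kb past the start peak in replicate 1 and 479 kb past it in replicate 2, and the next IDR region 134 kb past its own. HCAR1 is the upstream neighbour of DENR in RefSeq and CCDC62 the downstream one.

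RPS19 had no other peak upstream in its window. The next one upstream was 547 kb from the start peak in replicate 1 and 460 kb away in replicate 2. Downstream, replicate 1 had a peak of fold 2.91 with a summit 1.82 kb from the start, and this peak overlapped the end of the wider start peak of replicate 2. A further peak about 24.2 to 24.3 kb from the start was in both replicates, with folds of 2.23 and 3.07, and in the IDR list (42387802 to 42389328, signal 183, rank 2417). The neighbours of RPS19 in RefSeq are DMRTC2 upstream and CD79A downstream.

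The RBM39 window held 3 other peaks in replicate 1 and 1 in replicate 2. A peak 29.7 and 29.5 kb upstream was in both, with folds of 2.73 and 3.02, and no IDR region covered it. The other 2 were called in replicate 1 only. They were a peak of fold 3.90 with its summit 2.89 kb inside the gene and a peak of fold 2.26 with its summit 43.1 kb from the start, beyond the 3′ end. In RefSeq, ROMO1 is the gene next to that end and the pseudogene RPF2P1 lies next upstream.

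Leaving out the start peaks, which were chosen for a signal present in both replicates, 10 of 14 window peaks of replicate 1 (71.4%, exact 95% interval 41.9% to 91.6%) overlapped a replicate 2 peak, against 51.1% of the whole list. In the other direction it was 9 of 15 (60%, interval 32.3% to 83.7%), against 64.5%. Both intervals, which cover counting error only, include the share of the whole list. With the start peaks the counts were 14 of 18 (77.8%) and 13 of 19 (68.4%). Of the other peaks, 7 of 14 in replicate 1 and 10 of 15 in replicate 2 overlapped an IDR region. Over the whole lists the shares were 32.8% and 31.4%. In replicate 2, 8 of those 10 were at IGF2BP3, where neighbouring peaks share a region. The 7 in replicate 1 were 3 at IGF2BP3, 3 at DENR and 1 at RPS19, and the 3 at DENR shared 1 region. The 4 IDR regions of the windows other than the start regions each had a peak in both replicates, as had 63.3% of all IDR regions.

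Lower peaks close to a start peak were counted next. In replicate 1 all 4 start peaks had another summit within 5 kb, against 42.1% of the 1077 peaks with a fold of 6 or more. In replicate 2, 2 of 4 had one, IGF2BP3 and DENR, against 42.3% of 849. Windows held 14.4 to 49.97 peaks per Mb in the replicate lists, where the chromosomes they lie on had 3.03 to 13.5 between their first and last peak. The windows were placed on a known peak, which raises this density. Just outside the windows, the nearest replicate peaks were 7.09 to 498 kb beyond the edge, with folds of 1.91 to 4.04.

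Among the 12 regions of highest IDR signal, the 4 gene starts were compared with the other 8. Fragments overlapped, at 277 to 341 against 276 to 320 in replicate 1 and 254 to 332 against 252 to 305 in replicate 2. Mean folds overlapped too, at 9.04 to 13.9 against 11.0 to 16.4. The start peaks were narrower in replicate 1, at 1948 to 2718 bp against 3078 to 5278 bp, without overlap. In replicate 2 the widths of 2060 to 2735 bp and 2081 to 4795 bp overlapped. The distance between replicate summits was 1 to 11 bp at the 4 starts and 10 to 356 bp at the other 8. These are descriptions of chosen regions, and the differences were not tested.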

How the data were processed

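The authors' 3 deposited peak lists, in hg19, were used. Per the file headers, the replicate lists are MACS2 peaks, and per the labels each sets 1 ChIP library against input. MACS2 2.1.1, Picard and BWA 0.7.13-r1126 are named in the submitters' processing notes; no source used here gives their settings. The deposited columns are fold enrichment (a ratio), −log10 p, −log10 q and a score, which is 10 times −log10 q. The IDR list has a deposited score and signal value.

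Fold was read as (fragments + 1)/(background + 1) and p as the upper Poisson tail. A whole number of fragments matched within 0.001 in 100% of peaks of both lists. Median fragments at a summit were 34 and 30; total read numbers are not known here. The start peak is the one covering the 5′ end of the interval. The strand came from the RefSeq table, or, for RBM39, from general knowledge. Named features are the 4 genes, the start peak and strongest other peaks of each window, and the nearest RefSeq genes; the remaining window peaks were described after their values were seen. Members and lists were chosen with earlier results of these data known. Related genes (IGF2BP1, IGF2BP2, MCTS1, other ribosomal and splicing genes) were not analysed here, for want of an hg19 annotation. Overlap needed 1 bp. Steps were tested on simulated data. Python 3.11.15, SciPy 1.17.1 and pandas 2.3.3 were used.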

Additional observations from a re-analysis of the deposited data

How the results depend on the processing

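Of 75 alternative values, 23 stayed within the replicate spread, interval or 1.5 times of their result and 52 did not; causes were not tested, beyond what each alternative changes by construction. Leaving out 1 replicate is not counted among them, since each of 2 values lies within 1 SD of their mean by construction; the fold is then that of the other replicate. With the smallest background as denominator, fold became 49.6 (IGF2BP3), 60.2 (DENR), 47.9 (RPS19) and 55.8 (RBM39). Ranks by fragments in replicates 1 and 2 were 45 and 24 (IGF2BP3), 2 and 6 (DENR), 41 and 48 (RPS19), 6 and 11 (RBM39), and by −log10 p 55 and 26, 43 and 35, 25 and 53, 6 and 9 in that order of genes. Each window held 1 peak of fold 6 or more in either replicate. At −log10 q of at least 5, IGF2BP3 kept 4 and 6 peaks and RPS19 1 in replicate 1. In replicate 2, RBM39 had 1 peak with 25 kb on each side and RPS19 had 4 with 100 kb. Peaks shared by 50% reciprocal overlap were 44.4% and 42.1% in replicates 1 and 2, and with summits within 100 bp 38.9% and 36.8%. The start peak over the strongest other peak, averaged over replicates, was 4.81 (IGF2BP3), 8.21 (DENR) and 7.16 (RBM39) in fragments, and 11.2 (IGF2BP3), 17.9 (DENR), 21.4 (RPS19) and 24.6 (RBM39) in −log10 p. From the start, positive into the gene, peak centres lay at -720 bp (IGF2BP3), 433.8 (DENR), 572.8 (RPS19) and -165 (RBM39), and centres of IDR regions at -576, 88.5, 276.5 and 0 bp. Leaving out the 50 bases after the start removed 1 GGGCGG match at DENR and 1 CACGTG match in the second RPS19 entry. No paired analysis was possible because input enters both lists only as a background, and no test was made. Near 300 fragments, counting error of the ChIP fragments alone limits a fold to about the intervals given, which leave out error in the background. Weak window peaks with 18 to 62 fragments are less precise.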
